A study of Mus musculus with 6 samples.

Results

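The genes described here encode the mitochondrial protein import machinery, taken as every protein-coding row of the expression table whose symbol starts with *Timm* (translocase of the inner mitochondrial membrane) or *Tomm* (translocase of the outer mitochondrial membrane). That rule gave 23 of 16448 genes, and it used no expression value. RNA-seq had been carried out on cardiomyocytes (CMs) isolated from the ventricles of adult mice of 8 to 12 weeks on a C57BL/6 background. The Cpt1bcKO mice were αMHC-Cre pos/+;Cpt1b fl/fl and the littermate controls, CtrlCre, were αMHC-Cre pos/+;Cpt1b+/+, with 3 mice per genotype, so that both groups carried the Cre transgene and differed in the floxed *Cpt1b* alleles. Cre was driven by the αMHC (*Myh6*) promoter, which is active in CMs, so that *Cpt1b* was inactivated in these cells from embryonic stages on. *Cpt1b* encodes the muscle form of carnitine palmitoyltransferase 1, which commits long-chain fatty acids to entry into mitochondria for fatty acid oxidation (FAO). The comparison asks whether transcripts of the import machinery change when CMs lose FAO.

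Nearly all mitochondrial proteins are made in the cytosol and are brought in through translocases. The TOM complex forms the common gate of the outer membrane, the small TIM proteins chaperone hydrophobic precursors across the intermembrane space, the TIM22 complex inserts carrier proteins into the inner membrane, and the TIM23 complex passes proteins with a presequence into the matrix with the help of the mtHsp70 motor. CMs are packed with mitochondria and depend on this supply to maintain the respiratory chain.

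Values are normalised read counts, that is, reads per gene divided by a size factor of each library. The targeted gene followed the labels: *Cpt1b* was at 1861, 893 and 1443 in CtrlCre CMs and at 211, 353 and 285 in Cpt1bcKO CMs, without overlap (log2 fold change −2.27, SE 0.267, limma adjusted p = 0.00338). The values of a sample summed to between 13393411 and 31722217, of which the mitochondrial ribosomal RNA *mt-Rnr2* took 61.8% to 80.8%, and the sums without mitochondrially encoded and ribosomal RNA genes lay between 3146414 and 3551692. CM markers (10 genes) summed to between 587936 and 694383 in CtrlCre and between 382121 and 614438 in Cpt1bcKO, lowest in Cpt1bcKO replicate 1. All 10 had negative log2 fold changes (median −0.44), and 3 of the 10 were lower at an unadjusted p below 0.05. Fibroblast markers were at 498 to 785 in CtrlCre and 1108 to 1338 in Cpt1bcKO, with 7 of 7 testable genes higher at that threshold. Endothelial markers were at 1380 to 2849 and 2469 to 2843, smooth muscle and pericyte markers at 3421 to 4748 and 2778 to 3086, macrophage markers at 52 to 92 and 76 to 90 with *Cd14* at 0 in at least 1 sample, erythroid markers at 3 to 20 and 1 to 18 with *Hba-a1* and *Alas2* at 0 in at least 1 sample, and atrial markers at 146 to 265 and 477 to 720. The 6 smooth muscle and pericyte markers had 3 positive and 3 negative log2 fold changes. Only *Abcc9* among them had an unadjusted p below 0.05, as lower. It made up most of their sums, at 2839, 2867 and 2839 in CtrlCre and 1579, 1597 and 1739 in Cpt1bcKO CMs. Of the 2 testable atrial markers, only 1 was higher at an unadjusted p below 0.05. It was *Nppa*, at 177, 93 and 144 in CtrlCre and 683, 452 and 384 in Cpt1bcKO CMs, which made up most of the atrial sums. The part of these marker differences in the results below was not tested, and in bulk RNA fewer cells of a type and less RNA per cell cannot be told apart.

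No gene of the import machinery passed the test between Cpt1bcKO and CtrlCre CMs, and the point estimates were small. Of the 23, 15 had a positive and 8 a negative log2 fold change, with a median of 0.078 and a range from −0.40 for *Tomm34* to 0.49 for *Timm13*, against a median of −0.0013 over all 11364 genes tested. Without Cpt1bcKO replicate 1 the member median turned to −0.067, with 10 positive and 13 negative. Scaled to the sum without mitochondrially encoded and ribosomal RNA genes, it was 0.19, against 0.11 over all genes. All 23 members passed the filter on low values (10 or more in 3 or more samples). None reached an unadjusted p below 0.05 in the limma fit, where 13.9% of all genes did, 6.66% as higher and 7.22% as lower in Cpt1bcKO CMs. None reached an adjusted p below 0.05, where 1.57% of all genes did, and the adjusted p of the members lay between 0.442 and 0.975. *Timm13* alone had groups that did not overlap, as higher in Cpt1bcKO CMs, a pattern seen in 9.13% of all genes, and no member had it as lower, where 9.6% of all genes did. After scaling to the sum without mitochondrially encoded and ribosomal RNA genes, 26.1% of members did not overlap, all of them higher. Among all genes, 15.2% were then higher and 5.84% lower without overlap. Without Cpt1bcKO replicate 1, 30.4% of members did not overlap, 2 members higher and 5 lower, against 37.5% of all genes. The 95% intervals show what the 3 mice per group could resolve: they lay within a log2 change of −1 to 1 for 16 of the 23 members, with a median half-width of 0.57. A 2-fold change was therefore outside the interval for those 16. Some intervals also excluded smaller changes, as for *Timm17a* (−0.45 to 0.21), whereas changes that lay inside an interval could not be told from none.

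**Figure D1:**
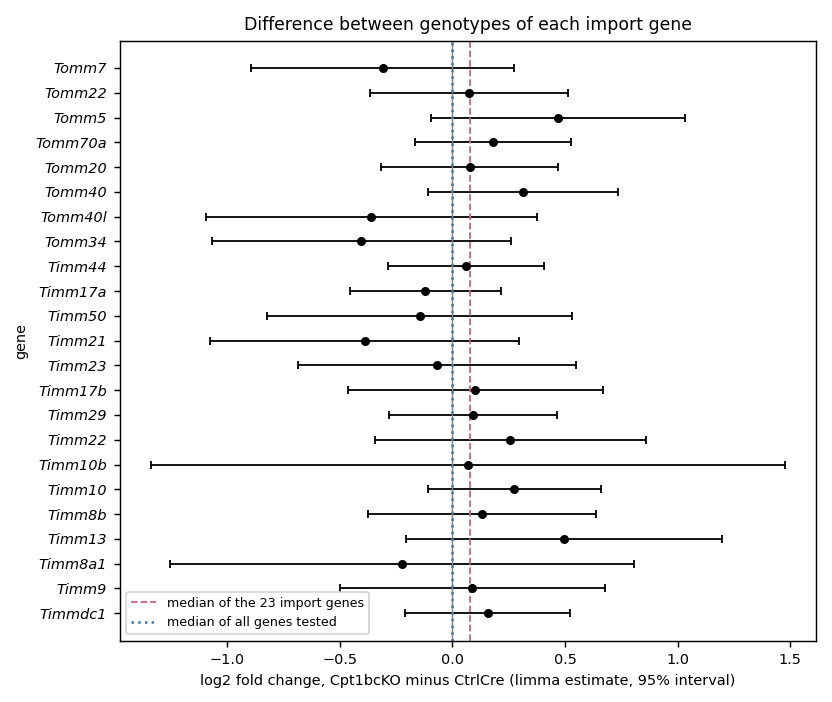
Log2 fold change (Cpt1bcKO minus CtrlCre, on the log2 of value plus 1 scale) of each import gene, grouped by role, with its 95% interval from the limma fit as a bar. The intervals of all 23 genes cross 0, and the point estimates lie between −0.40 and 0.49.

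The promoters of the import genes were searched for short motifs of transcription factors known from nuclear genes for mitochondrial proteins. RefSeq (GRCm38.p6) gave 22 promoters for 20 of the 23 members, each from 250 bases before to 50 bases after a start site, and *Tomm7*, *Tomm40l* and *Timm21* had no match. The ETS family motif CCGGAAGT, bound by GABP among others, occurred on either strand in 6 of the 22 (27.3%), against 3.89% of all promoters of that length and 8.32% of the promoters of the genes tested. The genes were *Timm10*, *Timm10b*, *Timm23*, *Timm29*, *Timmdc1* and *Tomm70a*. The NRF1 core GCATGCGC occurred in 1 (*Timm13*), or 4.55% of the 22, against 2.71% of all promoters and 5.33% of those of the genes tested. The YY1 motif AAGATGGC occurred in 1 (*Timm50*), against 2.75% and 4.65%, and the ERR motif TCAAGGTCA in 1 (*Timm8b*), against 0.423% and 0.234%. In the 150 bases of the window nearest its downstream end alone, ETS matches fell to 5 promoters, without *Timm29*, and NRF1 matches to 0. A match is a description of the letters and no evidence of binding. Of the 6 genes with the ETS motif, 5 had positive and *Timm23* a negative log2 fold change, and none passed the test.

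The promoters shown here are written 5′ to 3′ on the strand of their genes with the motif in capitals. They are that of *Timm10*, the member with the highest level per kb of exon (chr2:84826771-84827070, plus strand), that of the carrier receptor *Tomm70a* (chr16:57121464-57121763, plus strand), that of the channel gene *Timm23*, where the ETS motif is on the opposite strand and reads as its reverse complement (chr14:32201842-32202141, minus strand), and that of *Timm13*, the member without overlap between the groups, with the NRF1 core (chr10:80900920-80901219, minus strand).
Timm10: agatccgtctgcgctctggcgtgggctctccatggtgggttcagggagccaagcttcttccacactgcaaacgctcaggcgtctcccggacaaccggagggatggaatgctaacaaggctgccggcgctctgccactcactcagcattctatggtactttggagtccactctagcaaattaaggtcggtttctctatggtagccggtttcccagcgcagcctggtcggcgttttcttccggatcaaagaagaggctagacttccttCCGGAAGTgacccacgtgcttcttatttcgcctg
Tomm70a: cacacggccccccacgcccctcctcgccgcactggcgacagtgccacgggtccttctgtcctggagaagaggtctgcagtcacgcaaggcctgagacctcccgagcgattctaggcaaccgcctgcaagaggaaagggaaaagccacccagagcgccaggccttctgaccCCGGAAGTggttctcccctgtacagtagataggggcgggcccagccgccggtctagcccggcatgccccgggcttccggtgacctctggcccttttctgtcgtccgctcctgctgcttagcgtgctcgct
Timm23: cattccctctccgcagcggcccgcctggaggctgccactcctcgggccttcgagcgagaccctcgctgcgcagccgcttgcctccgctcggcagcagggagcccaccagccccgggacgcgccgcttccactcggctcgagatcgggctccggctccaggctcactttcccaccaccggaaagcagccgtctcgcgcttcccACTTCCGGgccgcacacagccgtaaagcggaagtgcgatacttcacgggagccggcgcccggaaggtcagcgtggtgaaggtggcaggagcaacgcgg
Timm13: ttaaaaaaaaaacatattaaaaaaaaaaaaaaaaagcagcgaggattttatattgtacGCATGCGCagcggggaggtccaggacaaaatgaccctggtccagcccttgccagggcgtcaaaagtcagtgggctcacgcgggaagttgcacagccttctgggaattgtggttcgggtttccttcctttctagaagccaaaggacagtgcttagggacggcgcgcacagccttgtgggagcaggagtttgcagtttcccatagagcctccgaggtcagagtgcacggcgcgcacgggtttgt

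In the TOM complex, 5 of 6 genes had positive and 1 had a negative log2 fold change (median 0.13), and none passed the test. *Tomm40* encodes the β-barrel channel through which precursors cross the outer membrane. It lies at chr7:19701313-19715438 on the minus strand (GRCm38) and was at 103, 89 and 120 in CtrlCre and 130, 116 and 141 in Cpt1bcKO CMs, so that the lowest Cpt1bcKO value lay just below the highest control (log2 fold change 0.31, SE 0.190, limma adjusted p = 0.497). *Tomm5*, a small subunit that stabilises the channel complex, lies at chr4:45105208-45108114 on the minus strand and was at 64, 44 and 47 in CtrlCre and 93, 64 and 60 in Cpt1bcKO CMs. It had the smallest p of all members (log2 fold change 0.47, 95% interval −0.094 to 1.03, limma adjusted p = 0.442), with the groups overlapping only in the highest control.

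The TOM receptors, which recognise precursors on the cytosolic side, lay nearer to the control level. *Tomm20*, the receptor for presequences, was at 118, 128 and 108 in CtrlCre and 132, 111 and 131 in Cpt1bcKO CMs (log2 fold change 0.078, SE 0.177, limma adjusted p = 0.885). *Tomm22*, the central receptor that also holds the complex together, was at 198, 187 and 188 in CtrlCre and at 269, 176 and 172 in Cpt1bcKO CMs. The first Cpt1bcKO mouse was above every control and the other two were below every control, giving a log2 fold change of 0.075 (SE 0.198). *Tomm70a*, the receptor for carriers and other precursors with internal signals, was at 410, 487 and 420 in CtrlCre and 577, 476 and 445 in Cpt1bcKO CMs (log2 fold change 0.18, SE 0.156, limma adjusted p = 0.655). *Tomm7*, a small subunit that modulates assembly of the complex, was the exception in direction. It was at 275, 162 and 217 in CtrlCre and 250, 137 and 148 in Cpt1bcKO CMs (log2 fold change −0.31, SE 0.263, limma adjusted p = 0.652), and the groups overlapped.

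Both TOM-named genes outside the core complex had lower means in Cpt1bcKO CMs, without passing the test (median log2 fold change −0.38). *Tomm34* encodes a cytosolic co-chaperone of precursors and was at 61, 39 and 35 in CtrlCre and 42, 31 and 27 in Cpt1bcKO CMs (log2 fold change −0.40, SE 0.299, limma adjusted p = 0.592). *Tomm40l*, a paralogue of the channel gene, was at 107, 61 and 87 in CtrlCre and 84, 38 and 83 in Cpt1bcKO CMs (log2 fold change −0.36, SE 0.331, limma adjusted p = 0.679). Of its exon bases, 64.3% overlap *Nr1i3* on the opposite strand. Whether reads were counted by strand is not given in the sources used here, so its level may be understated where reads over both genes were left out.

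The small TIM chaperones included 4 genes with positive and 1 with a negative log2 fold change (median 0.13). *Timm10*, the partner of *Timm9* in the chaperone ring that carries hydrophobic precursors, lies at chr2:84826997-84830213 on the plus strand and has 1 of the ETS motifs marked in the promoters. It was at 453, 364 and 400 in CtrlCre and 607, 438 and 439 in Cpt1bcKO CMs, where only the highest control exceeded the lowest Cpt1bcKO values (log2 fold change 0.27, SE 0.173, limma adjusted p = 0.526). *Timm9* itself was at 33, 34 and 32 in CtrlCre and 44, 29 and 34 in Cpt1bcKO CMs, a log2 fold change of 0.089 (SE 0.265) with overlapping groups.

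*Timm13*, which pairs with *Timm8* proteins in the second small TIM ring, lies at chr10:80899450-80900969 on the minus strand and was at 16, 15 and 21 in CtrlCre and 22, 27 and 25 in Cpt1bcKO CMs. Every Cpt1bcKO value was above every control, by as little as 1 normalised count, and the interval included 0 (log2 fold change 0.49, 95% interval −0.21 to 1.20, limma adjusted p = 0.532). Its partners did not share that separation. *Timm8b* was at 104, 79 and 93 in CtrlCre and 132, 81 and 94 in Cpt1bcKO CMs (log2 fold change 0.13, SE 0.228), and 15.6% of its exon bases overlap *Nkapd1* on the opposite strand. *Timm8a1*, the mouse counterpart of the gene mutated in human deafness-dystonia syndrome, was at 22, 12 and 13 in CtrlCre and 23, 9 and 10 in Cpt1bcKO CMs (log2 fold change −0.22, SE 0.464). Of its 75-base stretches, 39.9% also occur in another annotated gene, *Gm9797*, so that reads from them would be left out of its count.

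For the TIM23 presequence translocase, 2 of 6 genes had positive and 4 negative log2 fold changes (median −0.094). *Timm44*, which tethers the import motor to the channel, was at 544, 489 and 453 in CtrlCre and 605, 481 and 470 in Cpt1bcKO CMs (log2 fold change 0.061, SE 0.156, limma adjusted p = 0.900). *Timm23*, the channel subunit, was at 33, 45 and 27 in CtrlCre and 34, 34 and 30 in Cpt1bcKO CMs (log2 fold change −0.069, SE 0.279). Its values are less certain, since 50.5% of its 75-base stretches recur in other annotated genes, among them *Gm10273* and *Gm10171*. The paralogous channel partners were *Timm17a*, at 322, 353 and 351 in CtrlCre and 336, 335 and 276 in Cpt1bcKO CMs, and *Timm17b*, at 31, 44 and 41 in CtrlCre and 46, 42 and 36 in Cpt1bcKO CMs. Neither passed the test, with log2 fold changes of −0.12 (SE 0.151) and 0.10 (SE 0.255).

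*Timm21*, a subunit that connects TIM23 with TOM and the respiratory chain, was widely spread in Cpt1bcKO CMs. It was at 116, 117 and 100 in CtrlCre and at 147, 70 and 58 in Cpt1bcKO CMs, with 1 knockout above all controls and the other two below them (log2 fold change −0.39, SE 0.309, limma adjusted p = 0.624). *Timm50*, the receptor of the complex for incoming presequences, was similarly spread, at 101, 81 and 75 in CtrlCre and 119, 79 and 48 in Cpt1bcKO CMs (log2 fold change −0.14, SE 0.306), with 1 knockout above, 1 among and 1 below the controls.

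All 3 genes of the TIM22 carrier translocase had positive log2 fold changes of small size (median 0.091). Those of *Timm29* (−0.046 to 0.18) and *Timm10b* (−0.39 to 0.74) turned sign among the fits that left out 1 library. *Timm22*, the insertion channel, was at 33, 45 and 49 in CtrlCre and 38, 55 and 60 in Cpt1bcKO CMs (log2 fold change 0.26, SE 0.271, limma adjusted p = 0.728). *Timm29*, a subunit required for its stability, was at 223, 235 and 231 in CtrlCre and 217, 228 and 296 in Cpt1bcKO CMs (log2 fold change 0.091, SE 0.168), with 1 knockout above the otherwise close values. *Timm10b*, the peripheral chaperone subunit, had the lowest CtrlCre mean of all members, at 17, 13 and 6 in CtrlCre and 23, 16 and 4 in Cpt1bcKO CMs, and its interval of −1.34 to 1.48 excludes no 2-fold change in either direction. Of its exon bases, 22.1% overlap *Arfip2*, *Gm22504* or, on the same strand, *Gm45799*, so that its level may be understated where such reads were left out. *Timmdc1* carries a TIM-like name but acts in the assembly of complex I of the respiratory chain. It was at 203, 185 and 188 in CtrlCre and 246, 188 and 212 in Cpt1bcKO CMs (log2 fold change 0.16, SE 0.165, limma adjusted p = 0.726).

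**Figure D2:**
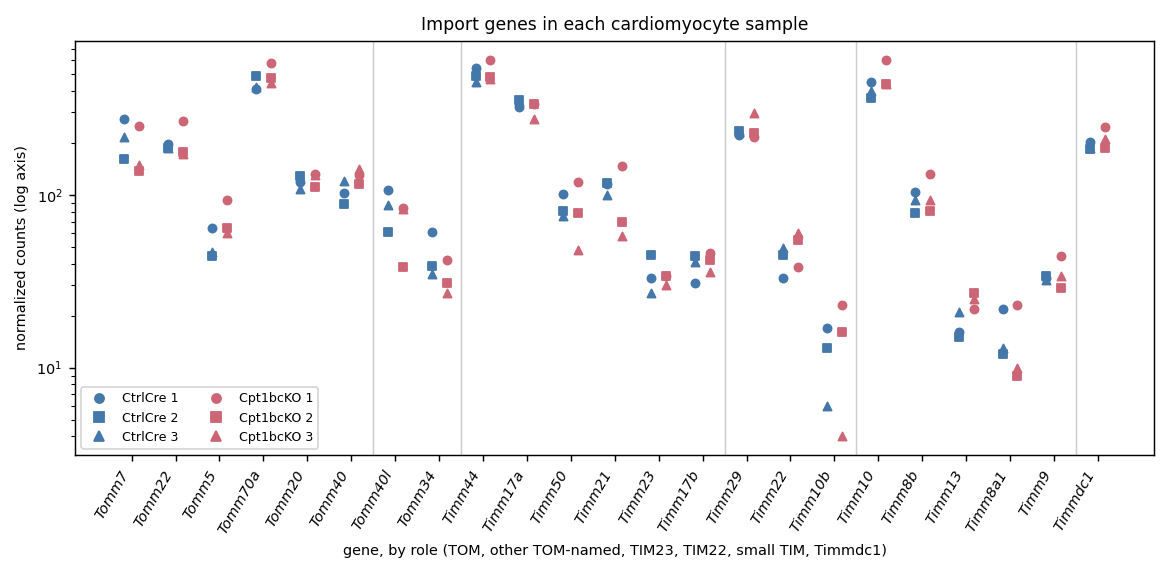
Normalised read count of each import gene in each sample (log10 axis, genes grouped by role), with CtrlCre and Cpt1bcKO samples as points. The groups overlap for every gene but *Timm13*, where the Cpt1bcKO values of 22 to 27 lie above the CtrlCre values of 15 to 21.

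The levels of the import genes differed far more between genes than between genotypes. Levels between genes were compared per kilobase of annotated exon, since longer transcripts collect more reads. On that scale, the CtrlCre mean ± SD (n = 3) of *Timm10*, at 498 ± 54.9 normalised counts per kb, was 149 times that of *Timm10b*, at 3.35 ± 1.55, and the median of the 23 genes was 29.8. After *Timm10* came *Tomm7* at 194 ± 50.2 per kb, *Timm8b* at 178 ± 24.2, *Timm44* at 135 ± 12.5 and *Tomm22* at 116 ± 3.68. *Timm10* was separated from *Tomm7*, and *Timm8b*, *Timm44* and *Tomm22* from each other, whereas the ranges of *Tomm7* and *Timm8b* overlapped.

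Several subunits of the same complex differed in level per kb, while others overlapped. *Timm9*, which joins *Timm10* in a ring of alternating subunits, was at 7.71 ± 0.234 counts per kb in CtrlCre, a level below that of *Timm10* by a factor of 64.6. *Timm17a* was at 43.3 ± 2.20 per kb and *Timm17b* at 15.1 ± 2.66, a ratio of 2.87, without overlap. The receptor *Tomm20* was at 24.1 ± 2.04 per kb, with the pore gene *Tomm40* next below it and overlapping in range, and *Tomm70a* was at 44.9 ± 4.28. Among the inner membrane channels, *Timm23* was at 19.6 ± 5.13 per kb and *Timm22* at 13.3 ± 2.62, with overlapping ranges (15.1 to 25.2 and 10.4 to 15.4). Reads from the 50.5% of *Timm23* stretches that recur in other genes would be left out, so its level per kb may be understated. These lengths count every annotated exon, including those that CMs may not use, so the levels per kb are lower for genes with many annotated ends than for compact genes.

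The order of the levels was nearly the same in Cpt1bcKO CMs. *Timm10* was again highest, at 607 ± 119 counts per kb, and *Timm10b* again lowest, and across the 23 genes the Spearman rho between the group means was 0.979, given as a description because the genes share libraries. Of the 22 neighbouring pairs in the CtrlCre order, 13 had overlapping ranges and so could not be ranked.

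**Figure D3:**
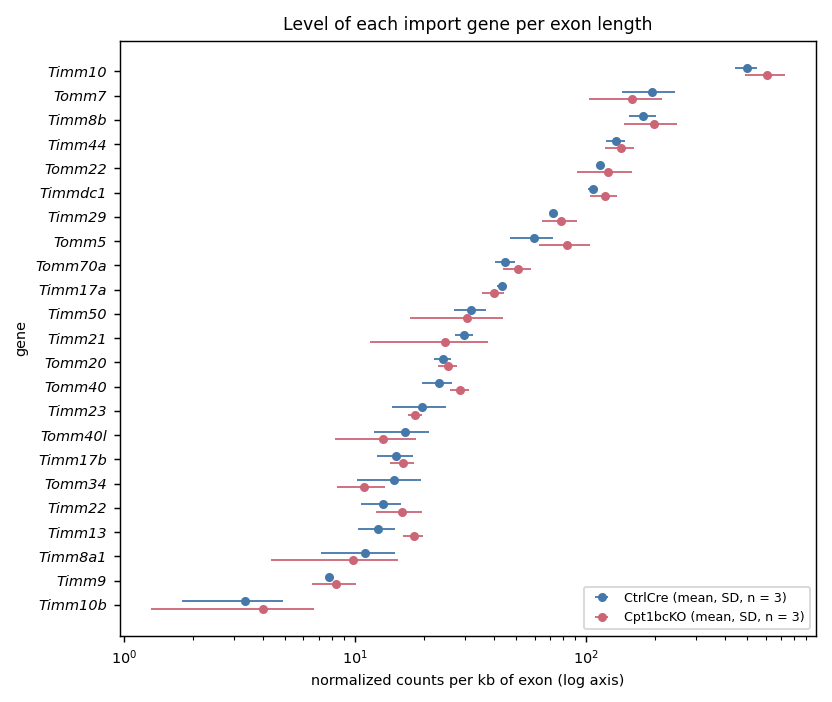
Level of each import gene in normalised counts per kb of annotated exon (log10 axis), ordered by the CtrlCre mean, with the mean and SD of both groups. The levels run from 498 per kb for *Timm10* to 3.35 per kb for *Timm10b* in CtrlCre. The sample values of the genotypes overlap in range for every gene but *Timm13*.

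Ratios between related genes within a sample, taken on value plus 1, depend little on how the libraries were scaled except at low values, and 7 such ratios were compared by exact two-sided permutation tests, which cannot give a p below 0.10 with 3 mice per group. The log2 ratio of *Timm17a* to *Timm17b* was 3.34, 2.98 and 3.07 in CtrlCre and 2.84, 2.97 and 2.90 in Cpt1bcKO CMs, lower by 0.22 on average. The groups did not overlap, with 2.98 and 2.97 as their nearest values (exact permutation p = 0.1, 0.35 after Benjamini-Hochberg adjustment). The log2 ratio of *Tomm40* to *Tomm40l* was −0.054, 0.54 and 0.46 in CtrlCre and 0.62, 1.58 and 0.76 in Cpt1bcKO CMs, higher by 0.67 on average and again without overlap (exact permutation p = 0.1, adjusted 0.35). Single libraries weighed on both differences: that of *Timm17a* to *Timm17b* was −0.12 without CtrlCre replicate 1, and that of *Tomm40* to *Tomm40l* 0.38 without Cpt1bcKO replicate 2. As *Tomm40l* shares most of its exon bases with *Nr1i3*, this ratio carries the uncertainty of its counts. The other 5 ratios overlapped between the groups, with adjusted p from 0.467 to 1.

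Of these 5, the difference in log2 ratio was −0.35 for *Timm8a1* to *Timm8b*, −0.32 for *Timm23* to *Timm22* and −0.18 for *Timm9* to *Timm10*. *Tomm70a* to *Tomm20*, the outer membrane receptors, differed by 0.10. *Tomm20* to *Tomm22* differed by 0.0024, with mean log2 ratios of −0.69 in both groups.

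**Figure D4:**
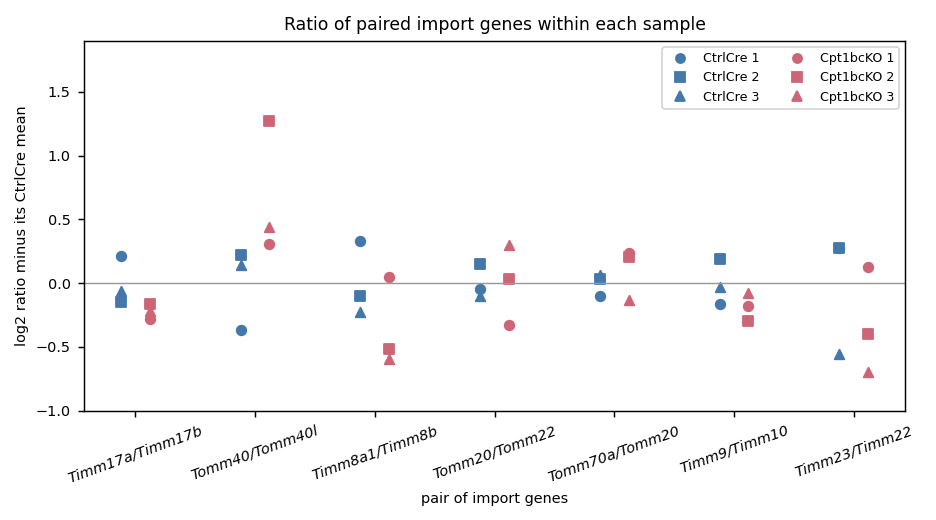
Log2 ratio of the values of related import genes within each sample, minus the CtrlCre mean of that ratio, with CtrlCre and Cpt1bcKO samples as points. The groups do not overlap for *Timm17a* to *Timm17b* (lower in Cpt1bcKO) and *Tomm40* to *Tomm40l* (higher in Cpt1bcKO), and they overlap for the other 5 ratios.

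Much of the spread of the import genes lay between the mice of a genotype. Cpt1bcKO replicate 1 had the highest value of all 6 samples for 14 of the 23 members (60.9%), where it was highest for 15.5% of all genes. Within its group it was highest for 18 of 23 members, or 78.3%, against 37.1% of all genes. CtrlCre replicate 1 was the highest control for 12 of the 23, or 52.2%, against 39.0% of all genes. The mean log2 difference of the members from the CtrlCre mean was 0.11, −0.046 and −0.065 in the CtrlCre mice and 0.32, −0.086 and −0.13 in the Cpt1bcKO mice. One knockout was therefore above every control and the other two below every control. The same knockout had the lowest CM marker sum and the highest fibroblast marker sum, and both replicates 1 stood apart in *Xist*, the RNA of the inactive X chromosome, at 957 and 1080 against 23 to 78 in the other 4 mice, and the part of these differences in the spread was not tested.

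As a mean log2 difference, the TIM23 genes were at 0.23, −0.12 and −0.40 in the Cpt1bcKO mice, and *Tomm34* and *Tomm40l* together at −0.018, −0.79 and −0.34. All 6 TIM23 genes had their lowest Cpt1bcKO value in replicate 3, as had 11 of the 23 members and 3864 of all 11364 genes. That library held the largest share of *mt-Rnr2*, at 80.8%. A read was estimated to be worth 1.294 normalised counts in it and 0.682 in Cpt1bcKO replicate 1. These were the highest and lowest estimates of the resolved samples. The part of these differences in the values was not tested. Without Cpt1bcKO replicate 1, the median log2 fold change of the 23 members was −0.067 instead of 0.078, with 10 positive and 13 negative. *Timm21* was then lower by 0.79 on the log2 scale (limma adjusted p = 0.0840), and *Tomm7* by 0.58 (limma adjusted p = 0.194), both with an unadjusted p below 0.05. In that fit 19.9% of all genes were past the same threshold, a larger share than the 2 of 23 members.

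**Figure D5:**
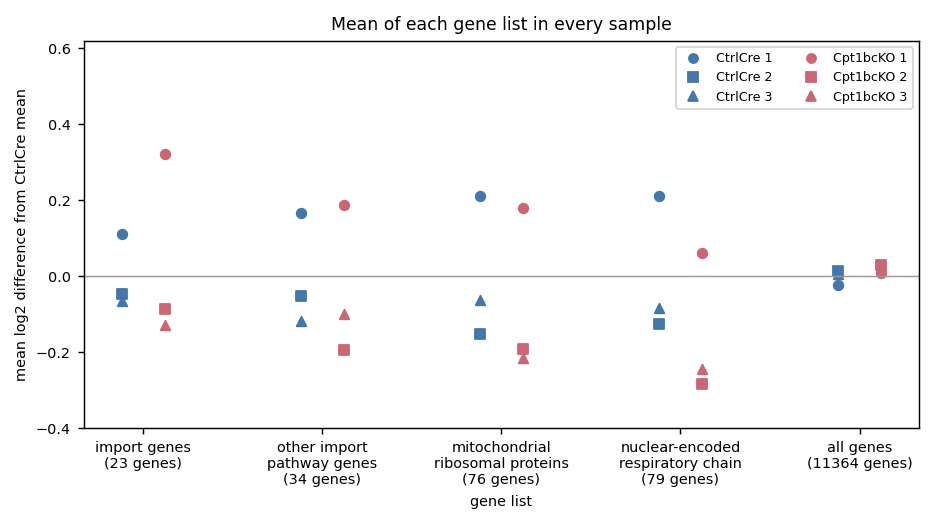
Mean log2 difference from the CtrlCre mean in each sample, for the import genes, the other import pathway genes, mitochondrial ribosomal protein genes, nuclear-encoded respiratory chain genes and all genes tested. The import genes are at 0.32 in Cpt1bcKO replicate 1 and at −0.086 and −0.13 in the other two knockouts, while all genes stay between −0.022 and 0.031.

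The first sample of each group was also high in other mitochondrial gene lists. For the 76 mitochondrial ribosomal protein genes tested, the mean log2 difference was 0.21, −0.15 and −0.062 in CtrlCre and 0.18, −0.19 and −0.21 in Cpt1bcKO CMs. For the 79 nuclear-encoded respiratory chain genes tested it was 0.21, −0.13 and −0.084 in CtrlCre and 0.061, −0.28 and −0.24 in Cpt1bcKO CMs. The median log2 fold change was 0.078 for the import genes, −0.045 for the ribosomal protein genes (33 positive, 43 negative) and −0.18 for the respiratory chain genes (14 positive, 65 negative). At an unadjusted p below 0.05, limma called 0 of 23 import genes, 1 of 76 ribosomal protein genes and 7 of 79 respiratory chain genes, all below the 13.9% of all genes, and the differences between the lists were not tested.

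The proteins that work with TIM and TOM were examined as a list of 34 genes, all of which passed the filter. It holds the import motor, the sorting and assembly machinery of the outer membrane, the cristae junction complex, the intermembrane disulfide relay, membrane insertases, the processing peptidases and the matrix chaperonin. Of these, 15 had positive and 19 negative log2 fold changes (median −0.045). At an unadjusted p below 0.05, 1 was higher and 1 lower, or 5.88% of the list in limma against 13.9% of all genes, and none had an adjusted p below 0.05. Without Cpt1bcKO replicate 1 it was 9 of the 34 against 19.9% of all genes, and with a block on replicate number 8 of the 34 against 20.8%. In both fits the order of the shares turned.

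*Grpel2*, a nucleotide exchange factor of mtHsp70, was the import pathway gene that differed most. It was at 71, 67 and 70 in CtrlCre and 203, 104 and 160 in Cpt1bcKO CMs, so that the lowest knockout was well above the highest control (log2 fold change 1.10, SE 0.245, 95% interval 0.56 to 1.65, limma adjusted p = 0.0582). The limma adjusted p was below 0.05 without Cpt1bcKO replicate 2 (0.0489) and reached 0.179 with other libraries left out. On all 6 samples it was 0.0415 in limma after scaling to the sum without mitochondrially encoded and ribosomal RNA genes and 0.0480 with no filter. With a block on replicate number it was 0.0123 in limma, though whether the numbers pair the samples was not settled. Its paralogue *Grpel1*, at 269, 246 and 243 in CtrlCre and 394, 249 and 277 in Cpt1bcKO CMs, had a log2 fold change of 0.25 (limma adjusted p = 0.598). The motor chaperone *Hspa9* (mtHsp70) was at 5251, 4710 and 4771 in CtrlCre and 5296, 4502 and 4311 in Cpt1bcKO CMs (log2 fold change −0.066, limma adjusted p = 0.876).

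*Mtx1*, a metaxin of the outer membrane sorting and assembly machinery, was lower, at 44, 35 and 25 in CtrlCre and 21, 18 and 18 in Cpt1bcKO CMs (log2 fold change −0.80, SE 0.311, limma adjusted p = 0.277). Its unadjusted p was above 0.05 in 4 of the 6 fits that left out 1 library, those without CtrlCre replicate 1 or 2 or Cpt1bcKO replicate 2 or 3. The other members of that machinery, *Samm50*, *Mtx2* and *Mtx3*, had log2 fold changes of −0.050, −0.040 and 0.23. Of the 34 genes, 2 were higher and 2 lower without overlap between the groups, a pattern seen in 9.13% and 9.6% of all genes. Besides *Grpel2* and *Mtx1*, these were *Dnajc19*, a J protein of the motor, at 63, 62 and 74 against 50, 51 and 41, and *Hspd1*, the matrix chaperonin, at 1240, 1125 and 1092 against 1459, 1310 and 1324. Neither *Dnajc19* nor *Hspd1* passed the limma test (adjusted p = 0.362 and 0.440). These last genes, *Grpel1*, *Hspa9* and the other metaxin genes were picked for mention after their values were seen.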

How the data were processed

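Total RNA of isolated CMs (3 CtrlCre and 3 Cpt1bcKO mice) had been made into stranded total RNA libraries and sequenced as single 75-base reads. Per the labels and the study's methods, the authors trimmed reads with Trimmomatic 0.36, aligned them to mm10 (GRCm38.p5) with STAR 2.5.4b, counted them per gene with featureCounts 1.6.0 leaving out reads assigned to several genes or regions, and normalised the counts with DESeq2 1.14.1. The annotation release and use of strand are not given in the sources used here. The deposited values are these normalised counts rounded to whole numbers, handled as a score and not as raw counts, so no count model was run. The worth of 1 read, estimated from gaps in the low values, was 0.682 to 1.294 in the 5 of 6 samples where it could be resolved. The deposited table also holds the authors' group means, fold changes and p-values, which were not used.

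The 11364 of 16448 genes that reached 10 in 3 or more samples were fitted as log2(value + 1) with limma 3.58.1 (trended prior, R 4.3.3), with Benjamini-Hochberg adjustment over all of them. Fold changes are on that scale, which understates changes of low genes. The unadjusted threshold of 0.05 is given beside the adjusted one because the study called genes by it. Ratios were compared with exact permutation tests (scipy 1.17.1). Exon lengths, overlaps and 75-base stretches shared between genes came from GENCODE vM21 (GRCm38), where 20 of 23 members had the same span as in the deposited table. Gene positions are those of the deposited table. The script was tested on simulated data.

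The members and lists were chosen with earlier results of these data known. The 23 members are all named, with *Cpt1b* as the targeted gene, and of the other pathway genes those with an unadjusted p below 0.05. Alternatives were other scalings, filters, pseudocounts of 0.5 and 5, a constant prior variance, a block on replicate number and leaving out each library. Samples with the same number were not treated as pairs.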

Additional observations from a re-analysis of the deposited data

How the results depend on the processing

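No import gene had an adjusted p below 0.05 in the reported fit or under any of the 14 alternatives. Median-of-ratios size factors, both other pseudocounts, no filter and a filter in every sample (21 members tested) also left 0 of them at an unadjusted p below 0.05. Scaling to the sum without mitochondrially encoded and ribosomal RNA genes gave 2 of 23 (*Tomm40* and *Tomm5*, both higher), where 15.3% of all genes were past that p, and 6 members without overlap, all 6 higher, or 26.1% of the members, where 15.2% of all genes were higher without overlap. It moved the median of all genes to 0.11 and that of the members to 0.19, so that the members stood 0.081 above all genes instead of 0.079, and the all-gene calls at that p went from 757 higher and 821 lower to 1221 and 500. Under it *Timm23* was at 0.040 and *Hspa9* at 0.046, reversed in sign, and 5 of 34 other import pathway genes had an unadjusted p below 0.05 instead of 2, against the same 15.3% of all genes. A constant prior variance gave 1 member at an unadjusted p below 0.05 (*Timm13*, higher), where 13.0% of all genes were, and 41 genes by adjusted p instead of 178, with *Cpt1b* at a limma adjusted p of 0.0563. The adjusted p of *Grpel2* ranged from 0.0123 (replicate block) to 0.179 over all alternatives in limma.

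Samples with the same replicate number correlated at 0.376, 0.255 and 0.0684 in their deviations from the group means. These values do not settle whether the numbers pair the samples. A replicate block gave 2 members at an unadjusted p below 0.05 (*Timm10* and *Tomm5*, both higher), 8 of 34 other import pathway genes and 20.8% of all genes at that p, and 603 genes by adjusted p. CtrlCre replicates 1 and 2 correlated best with their own numbers, whereas CtrlCre replicate 3 correlated best with Cpt1bcKO replicate 2 (0.119).

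Leaving out single libraries gave 0 to 1 members higher and 0 to 2 lower at an unadjusted p below 0.05 (*Tomm5* without CtrlCre replicate 1, *Timm21* and *Tomm7* without Cpt1bcKO replicate 1), 1 to 7 without overlap (4.35% to 30.4%, against 24.9% to 37.5% of all genes), a member median of −0.067 to 0.14, 972 to 2208 genes (8.82% to 19.9%) by unadjusted and 40 to 305 by adjusted p, and 1 to 9 of 34 other import pathway genes (9 without Cpt1bcKO replicate 1) by unadjusted p, with a median of −0.15 to 0.037. The log2 fold change turned sign within these ranges: −0.045 to 0.20 for *Timm17b*, −0.62 to 0.035 for *Timm8a1*, −0.23 to 0.12 for *Timm23*, −0.39 to 0.74 for *Timm10b*, −0.055 to 0.13 for *Timm44*, −0.067 to 0.28 for *Timm8b*, −0.069 to 0.22 for *Timm9*, −0.13 to 0.19 for *Tomm22*, −0.58 to 0.011 for *Tomm40l*, −0.046 to 0.18 for *Timm29*, −0.46 to 0.19 for *Timm50* and −0.15 to 0.17 for the log2 ratio of *Tomm20* to *Tomm22*. The difference in log2 ratio was −0.30 to −0.12 for *Timm17a* to *Timm17b* and 0.38 to 0.86 for *Tomm40* to *Tomm40l*. The cause was not tested. With 3 mice per group and counts under 30 for *Timm13*, *Timm8a1* and *Timm10b*, only large changes of these genes could have been detected.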
